A study of Mus musculus with 56 samples.

Results

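Spon2 and Angptl7, genes for a pair of secreted proteins, stood out in mouse heart because their transcripts swung strongly over the day and kept their peak times when the hours of feeding were moved. They are 2 of the 22864 genes listed in the heart table, and both were among the 13893 genes tested (mean of at least 1 TPM, transcript reads per base of exon scaled to 1 fixed sum per library). They were picked for the size of their rhythm and for a peak time that ignored feeding, measured in these same libraries. Their amplitudes, peak times and phase shifts are therefore given as descriptions, without a test. Of 2434 genes that were rhythmic under both regimens, 1254 outside the clock list had peaks within 4 h of each other, here called phase locked. Ranked by the smaller of their log2 amplitudes, Spon2 held rank 2 with 1.08 and Angptl7 rank 4 with 1.07. The genes around them in that order were Col5a3 (1.09), Gm25047 (1.07), Scd4 (1.03) and Zbtb16 (1.01).

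The animals were adult females of the inbred strain C57BL/6J, 9 weeks old, with no engineered allele named in the labels, and their hearts were collected under a cycle of 12 h light and 12 h dark. For 7 days the animals received food by day only (daytime-restricted feeding, DRF) or by night only (nighttime-restricted feeding, NRF), the latter being the reference for a nocturnal animal. Hearts were sampled every 4 h from zeitgeber time 0 (ZT0, lights on) to ZT24, with 4 replicates in each of the 14 groups of regimen and ZT, 56 libraries in all. The labels do not say whether a replicate is 1 animal or a pool, so the p-values measure the spread between these samples, which may be partly technical, and they name no batch.

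Recovered reads ranged from 29.3 to 53 M (mega) per library, with a median of 37.4 M, and 0 pairs of libraries were identical. Cardiomyocyte markers summed to at least 15383 TPM in every library, so the defining genes of the labelled tissue were present throughout. Mitochondrially encoded genes took 18.2% to 24.9% of reads under DRF (median 22.1%) and 16.6% to 22.8% under NRF (median 20.4%). In whole tissue, fewer cells of a type and less RNA per cell cannot be told apart.

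Spon2 encodes spondin 2, also called mindin, a matrix protein of the spondin family that binds integrins on leukocytes and takes part in innate immunity. Angptl7 encodes angiopoietin-like 7, a secreted glycoprotein with a fibrinogen-like domain that is best known from the eye, where it is linked to the matrix of the outflow tissue and to eye pressure. The molecular clock of each cell is a feedback loop in which ARNTL (BMAL1) and CLOCK or NPAS2 switch on the Per and Cry repressors and the Rev-erb genes. Light sets the master clock in the brain, and feeding time is a strong cue for many peripheral tissues. Rhythms that stay with the light cycle and rhythms that move with food can be separated by inverted feeding.

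Spon2 (ENSMUSG00000037379) lies on chromosome 5, 33198184 to 33218455, minus strand (GRCm38). It has 5 annotated transcripts, 2 of them coding, and no other gene overlaps it. The longest coding transcript holds 2045 bases in 6 exons, and the union of all exons is 2947 bases. Angptl7 (ENSMUSG00000028989) lies on chromosome 4, 148495183 to 148500460, minus strand, with 1 transcript of 2157 bases in 5 exons. The whole gene sits inside intron 28 of 57 of Mtor (148491767 to 148511770), a kinase gene on the plus strand, and the annotated exons of both share 0 bases. Whether strand was used in counting is not stated, so unspliced Mtor reads that fall in Angptl7 exons could not be told from Angptl7 reads. Mtor itself averaged 12.5 TPM and was not called rhythmic under NRF (adjusted p = 0.0631) or DRF (adjusted p = 0.751, limma F test, Benjamini-Hochberg).

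The promoter of Angptl7 is shown beside those of Per3, a clock repressor gene, and Fkbp5, a gene induced by glucocorticoid hormone whose daily profile resembles that of Angptl7. Each is the 250 bases before the start site, 5′ to 3′ on the gene's strand, from RefSeq on GRCm38.p6, at chr4:148500463-148500712, chr4:151044666-151044915 and chr17:28486150-28486399 respectively. Capitals mark the letters that match a motif searched.
Angptl7: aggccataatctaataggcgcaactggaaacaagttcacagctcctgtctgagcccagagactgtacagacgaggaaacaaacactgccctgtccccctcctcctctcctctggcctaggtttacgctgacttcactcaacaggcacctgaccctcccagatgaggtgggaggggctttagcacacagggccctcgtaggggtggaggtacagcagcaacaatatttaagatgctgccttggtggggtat
Per3: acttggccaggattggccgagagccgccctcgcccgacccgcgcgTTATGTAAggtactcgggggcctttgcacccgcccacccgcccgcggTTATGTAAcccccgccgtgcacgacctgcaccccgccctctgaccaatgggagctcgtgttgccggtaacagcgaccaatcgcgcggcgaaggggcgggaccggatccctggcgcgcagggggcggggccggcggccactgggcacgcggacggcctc
Fkbp5: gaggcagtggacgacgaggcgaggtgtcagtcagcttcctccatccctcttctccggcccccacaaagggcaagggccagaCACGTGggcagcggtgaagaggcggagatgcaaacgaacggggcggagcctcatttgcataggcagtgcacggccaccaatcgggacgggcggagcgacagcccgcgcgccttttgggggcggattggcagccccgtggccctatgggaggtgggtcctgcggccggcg
The search covered 300 bases, from 250 before to 50 after the start, on both strands. The motifs were the E-box CACGTG (in 7.15% of 32851 mouse promoters), the E-prime box CACGTT (4.68%), the RORE core AGGTCA (16.3%), the D-box TTATGTAA or TTACGTAA (1.06%), the glucocorticoid receptor half-site AGAACA (19%) and the CRE TGACGTCA (1.79%). No motif contains another, and matches of different motifs were counted separately. Angptl7 held 0 matches and 54.4% G and C, which says only that these letters are not in this window. Per3 held 2 D-boxes, starting at -205 and -158, and Fkbp5 held an E-box at -169. In the clock list 16 of 19 genes had a promoter in the table, and 5 of them held an E-box, 5 a RORE core, 3 an E-prime box, and 1 each a D-box, a half-site and a CRE, counted per gene. The promoter of Spon2 was not in the table.

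Spon2 was a gene of the hours around lights on. Its values are TPM for replicates 1 to 4. Under NRF it stood at 27.9, 19.4, 32.6 and 30.7 at ZT0. It was at 25.2, 14.2, 17.6 and 26.7 at ZT4 and at 20.6, 4.65, 3.71 and 8.1 at ZT8. From ZT0 to ZT8 the libraries spread widely, and replicate 1 of ZT8 lay at the level of ZT4. At ZT12 the libraries read 0.995, 1.78, 1.92 and 1.67, at ZT16 they read 4, 2.88, 2.38 and 6.36, and at ZT20 5.53, 11.3, 6.4 and 10.8. ZT24 returned to 16.4, 15.4, 34.9 and 32.7. All 4 libraries of ZT12 were below every other NRF library, so the trough at the light-to-dark change was sharper than the peak.

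Under DRF, Spon2 was at 11.5, 13.9, 11 and 13.5 at ZT0 and at 5.51, 29.7, 20.9 and 17.4 at ZT4. The ZT4 libraries thus ranged from a trough-like to the highest DRF value. Levels were 6.48, 5.01, 1.59 and 4.43 at ZT8, 1.95, 5.6, 3.46 and 2.68 at ZT12, and 1.7, 3.15, 4.9 and 3.51 at ZT16. They were 6.05, 9.51, 3.97 and 5.88 at ZT20 and 15.3, 16.2, 12.3 and 11.4 at ZT24. From ZT8 to ZT16 the DRF libraries formed a low plateau, with overlapping ranges at the 3 times.

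Angptl7 ran the other way, with high levels through the dark phase. Its TPM values under NRF were 14.9, 18.3, 14.3 and 6.58 at ZT0, 4.04, 9.82, 8.45 and 2.87 at ZT4, and 7.22, 9.15, 12.9 and 14.6 at ZT8. They rose to 41.2, 43.6, 30.5 and 34.1 at ZT12, 34.4, 63.2, 45.5 and 48 at ZT16, and 35.2, 48.1, 42.2 and 36 at ZT20. At ZT24 they were back at 8.11, 14.2, 9.7 and 10. The 12 libraries of ZT12, ZT16 and ZT20 all lay above the 16 others.

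Under DRF, Angptl7 was at 23.8, 19, 17.4 and 12.8 at ZT0, 12, 13.4, 13.4 and 5.02 at ZT4, and 13.6, 14.5, 11.4 and 22.1 at ZT8. It reached 37, 39.4, 24.3 and 31.3 at ZT12 and 44.2, 50, 50.9 and 58.1 at ZT16. ZT20 gave 15.2, 40.4, 38.2 and 25.9, and ZT24 gave 13.2, 10.7, 7.67 and 13.2. The high block was less closed than under NRF, since replicate 1 of ZT20 fell among the daytime libraries. Every DRF library of ZT16 stayed above every library of the other DRF times.

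**Figure D1:**
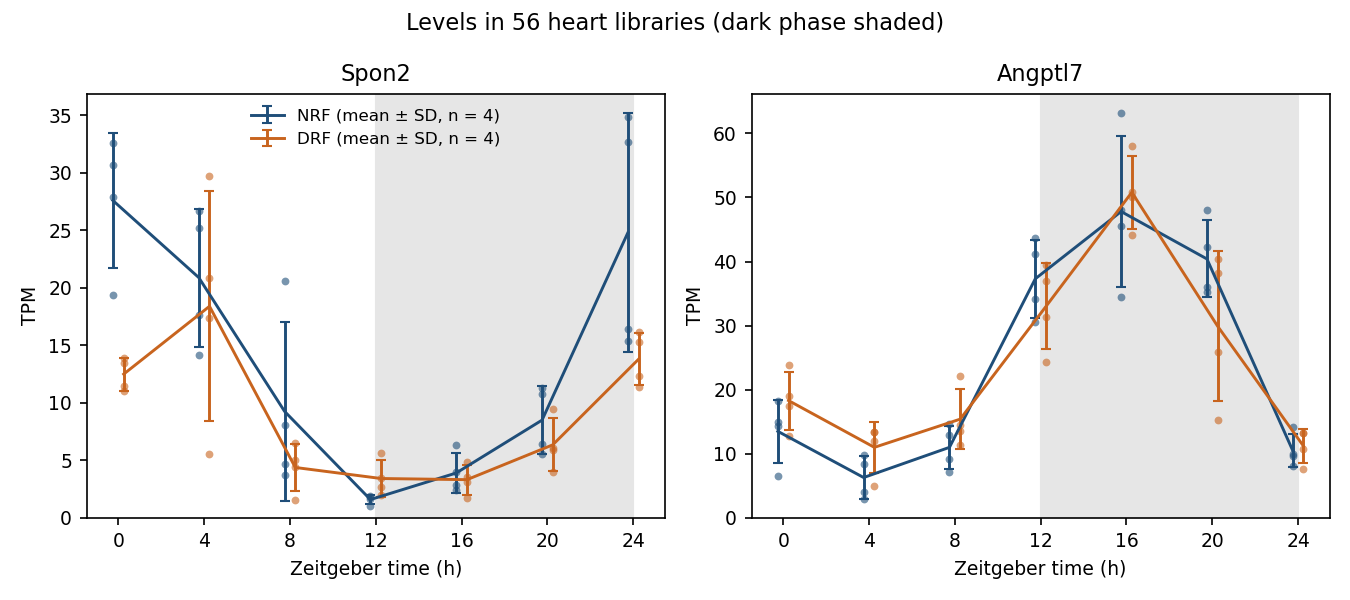
Level of Spon2 (left) and Angptl7 (right) in TPM on the y axis against zeitgeber time in h, with a point for each of the 56 libraries and lines through group means ± SD (n = 4). Spon2 was lowest from ZT12 to ZT16 and Angptl7 highest at ZT16 under both regimens, and at ZT0 the Spon2 means were 27.6 TPM under NRF and 12.5 TPM under DRF.

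Group means ordered the times as follows. For Spon2 under NRF the order was ZT0 (27.6 ± 5.84 TPM, SD, n = 4), ZT24 (24.8 ± 10.4), ZT4 (20.9 ± 6), ZT8 (9.26 ± 7.79), ZT20 (8.5 ± 2.96), ZT16 (3.9 ± 1.77) and ZT12 (1.59 ± 0.411). Neighbours overlapped in their libraries except ZT16 and ZT12. Under DRF it was ZT4 (18.4 ± 10), ZT24 (13.8 ± 2.27), ZT0 (12.5 ± 1.44), ZT20 (6.35 ± 2.31), ZT8 (4.38 ± 2.05), ZT12 (3.42 ± 1.58) and ZT16 (3.32 ± 1.31), and among neighbours ZT0 and ZT20 alone did not overlap. From highest to lowest group, Spon2 spanned 17.4-fold under NRF (ZT0 against ZT12) and 5.54-fold under DRF (ZT4 against ZT16). The lowest library of the highest group was 19.4 against 1.92 TPM for the highest of the lowest group under NRF, and 5.51 against 4.9 TPM under DRF.

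For Angptl7 the NRF order was ZT16 (47.8 ± 11.8 TPM, SD, n = 4), ZT20 (40.4 ± 6.01), ZT12 (37.3 ± 6.13), ZT0 (13.5 ± 4.96), ZT8 (11 ± 3.38), ZT24 (10.5 ± 2.59) and ZT4 (6.29 ± 3.36). The single gap between neighbours lay between ZT12 and ZT0. Under DRF the order was ZT16 (50.8 ± 5.73), ZT12 (33 ± 6.72), ZT20 (29.9 ± 11.7), ZT0 (18.3 ± 4.53), ZT8 (15.4 ± 4.68), ZT24 (11.2 ± 2.64) and ZT4 (11 ± 4.02), with the gap after ZT16. The span was 7.59-fold under NRF and 4.63-fold under DRF, from ZT16 to ZT4 in both.

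Spon2 rested on 47 to 1952 reads per library (median 367), which gives a counting SD of 14.6% of the level at the lowest. Angptl7 rested on 94 to 2537 reads (median 622), 10.3% at the lowest. PCR copies were not separated from molecules, so these cover counting error only.

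Set side by side at each ZT, Spon2 had the lower mean under DRF at 6 of 7 times. At ZT0 the libraries of the regimens did not overlap, and NRF was 2.21-fold higher (log2 DRF minus NRF -1.07, SE 0.18). At ZT12 the gap was the other way, 2.15-fold higher under DRF (log2 0.72, SE 0.28), again without overlap. Over all genes tested, 15.4% had no overlap at ZT0 and 13.5% at ZT12. At ZT24, the clock time of ZT0 a day on, the log2 difference was -0.72 (SE 0.32) and the libraries overlapped. The remaining log2 differences ran from -0.76 (SE 0.59) at ZT8 to -0.17 (SE 0.34) at ZT16. Angptl7 overlapped between regimens at all 7 ZTs. Its log2 differences were 0.46 (SE 0.34) at ZT0, 0.76 (SE 0.47) at ZT4 and 0.46 (SE 0.28) at ZT8, with -0.18 (SE 0.19) at ZT12, 0.11 (SE 0.19) at ZT16, -0.50 (SE 0.33) at ZT20 and 0.08 (SE 0.23) at ZT24. Its mean was thus higher under DRF at 5 times and lower at 2. These values belong to the contrast that chose the genes.

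A 24-h cosine fitted to log2(TPM + 1) in each regimen placed the peak of Spon2 at ZT1.45 (SE 0.371 h) under NRF and ZT1.6 (SE 0.556 h) under DRF. The shift was 0.15 h (SE 0.668; 95% interval -1.16 to 1.46). It was 1.37 h without ZT8 and -0.417 h without ZT4, and ran from -0.139 h (without DRF ZT4 replicate 2) to 0.614 h (without DRF ZT8 replicate 3) when 1 library was left out. Its amplitude, the height of the fitted peak above the daily mean on this log2 scale, was 1.62 (SE 0.14) under NRF and 1.08 (SE 0.14) under DRF, or 66.4% of NRF. Angptl7 peaked at ZT16.2 (SE 0.29 h) and ZT15.7 (SE 0.418 h), a shift of -0.449 h (SE 0.509; 95% interval -1.45 to 0.548). Left-out times moved this shift between -0.772 h (without ZT12) and -0.0977 h (without ZT20), and single libraries between -0.577 and -0.232 h. Its amplitude was 1.52 (SE 0.12) and 1.07 (SE 0.12), or 70.2% of NRF. The peaks of Spon2 and Angptl7 were 9.25 h apart under NRF and 9.9 h under DRF, by the shorter way round the day.

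Fits within single replicate numbers gave the spread behind these values. Over the 4 numbers, the Spon2 shift ran from -1.5 to 1.45 h (SD 1.26) and the Angptl7 shift from -1.18 to 0.201 h (SD 0.599). The log2 amplitude ratio, DRF to NRF, was below 0 in 4 of 4 for Spon2 (-0.917 to -0.299) and in 4 of 4 for Angptl7 (-1.04 to -0.202). The labels do not pair the regimens by these numbers. Leaving out ZT12, where the NRF trough of Spon2 lies, changed its log2 amplitude ratio from -0.59 to -0.30. Over all genes rhythmic under both regimens, 56.8% had the smaller amplitude under DRF, with a median log2 ratio of -0.09.

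The peaks of most clock genes were earlier under DRF. Of the 19 listed, NRF gave a rhythm in 19 and DRF in 17, beside 37.2% and 32.2% of all genes tested. Rhythms differed between regimens in 18 of the 19, beside 27.5% of all genes (limma F test, adjusted p under 0.05). Peaks were earlier under DRF in 17 and later in 2, with a median shift of -1.86 h. The shifts ranged from -3.54 h (Bhlhe41, a repressor) to 4.11 h (Rora, an activating nuclear receptor). Among the 17 rhythmic under both regimens, 16 were earlier under DRF and 1 later. Of all 13893 genes tested, 8204 had the earlier fitted peak under DRF, and so did 1595 of the 2434 rhythmic under both. The 95% interval lay entirely below 0 for 14 clock genes and entirely above 0 for 1.

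Arntl, the activator BMAL1, which peaks near Spon2, moved from ZT0.857 to ZT23.2, by -1.71 h (SE 0.408; adjusted p of the difference in rhythm 3.19e-07, limma). Its amplitude was 1.71 under NRF and 1.01 under DRF, near those of Spon2. Per2, a repressor that peaks in the early night, moved from ZT14.8 to ZT13.3, by -1.5 h (SE 0.405; adjusted p = 4.83e-05). Dbp, a clock output factor, shifted by -2.14 h (SE 0.463; adjusted p = 2.11e-05), and Per3 by -2.07 h (SE 0.425; adjusted p = 1.3e-07). Nr1d1 (Rev-erb alpha) shifted by -0.777 h (SE 0.336, adjusted p = 0.003, limma), within the intervals of Spon2 and Angptl7. Its call was lost without replicate 2, without replicate 3 and without ZT12. Of the 19 shifts, 15 lay below the interval of Spon2 and 13 below that of Angptl7. Clock (-1.32 h) and Nr1d2 (-1.23 h) were within that of Angptl7. Cry2 (-0.0997 h) and Per1 (0.274 h) were within both, though neither was called rhythmic under DRF. A phase-locked class that reaches to 4 h thus takes in both near-zero shifts and the advance of the clock genes. No test of the distance between the shifts of the clock list and of Spon2 or Angptl7 was made, since these had been chosen for their shift.

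**Figure D2:**
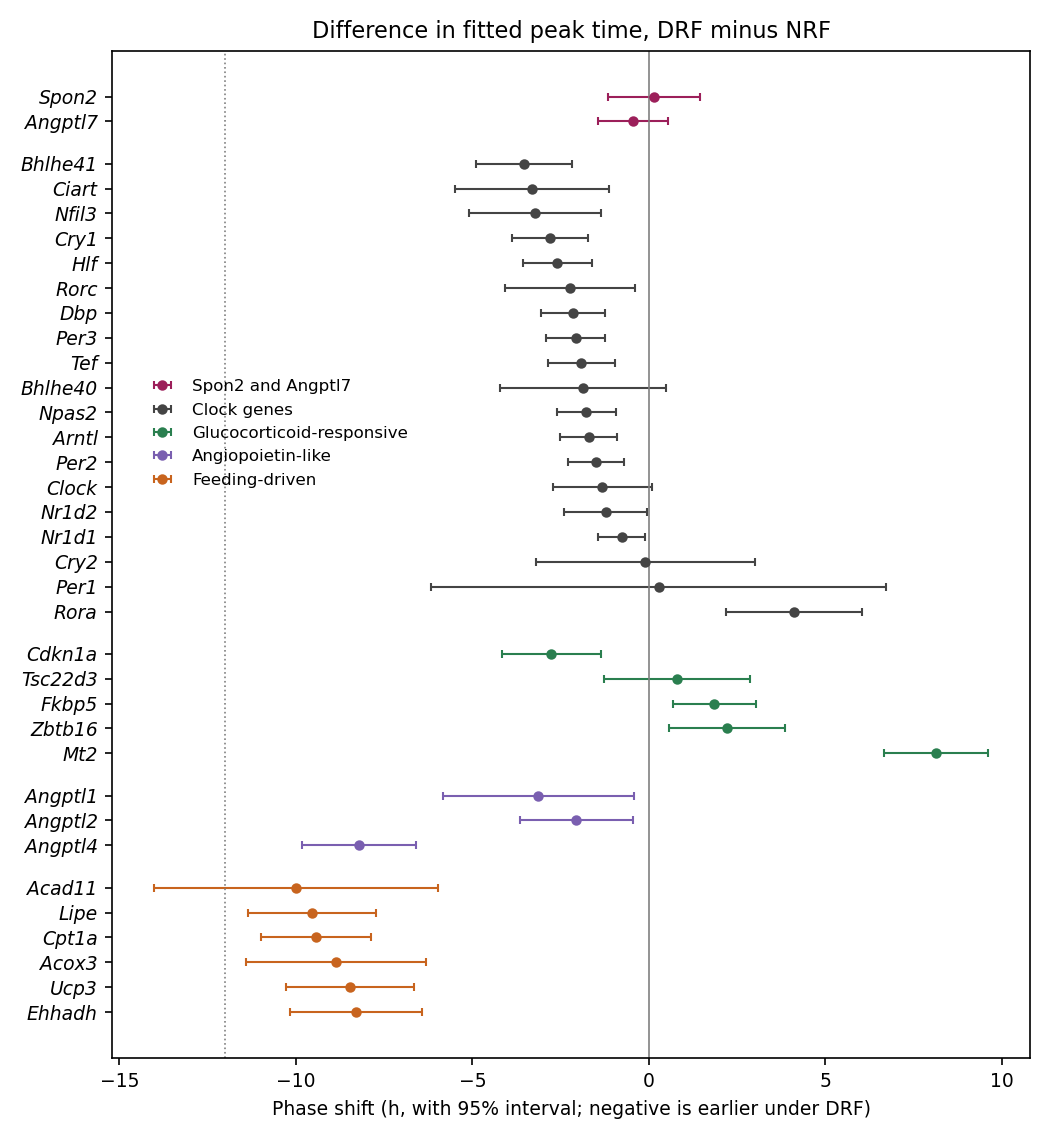
Difference in fitted peak time, DRF minus NRF, in h on the x axis with 95% intervals, for Spon2 and Angptl7, the 19 clock genes, the glucocorticoid-responsive and angiopoietin-like genes that were rhythmic under both regimens, and 6 feeding-driven genes. The shifts of Spon2 (0.15 h) and Angptl7 (-0.449 h) are drawn at the top, most clock genes lie between -3.54 and 0 h, and the feeding-driven genes lie near -8 to -10 h, with a dotted line at -12 h.

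The amplitude of Spon2 and Angptl7 was smaller under DRF, and so was that of 18 of 19 clock genes. Over the 19, the median log2 ratio was -0.76 and the range -2.55 to 0.22. The lowest ratio was that of Per1, which was not called rhythmic under DRF (limma F test, adjusted p = 0.469). Among the 17 clock genes rhythmic under both regimens, 16 had the smaller amplitude under DRF, with a median log2 ratio of -0.67. Of all 19, the ratio was below that of Spon2 in 12 and below that of Angptl7 in 14. In absolute terms 4 clock genes had a larger amplitude than either Spon2 or Angptl7 under NRF, and 3 under DRF.

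**Figure D3:**
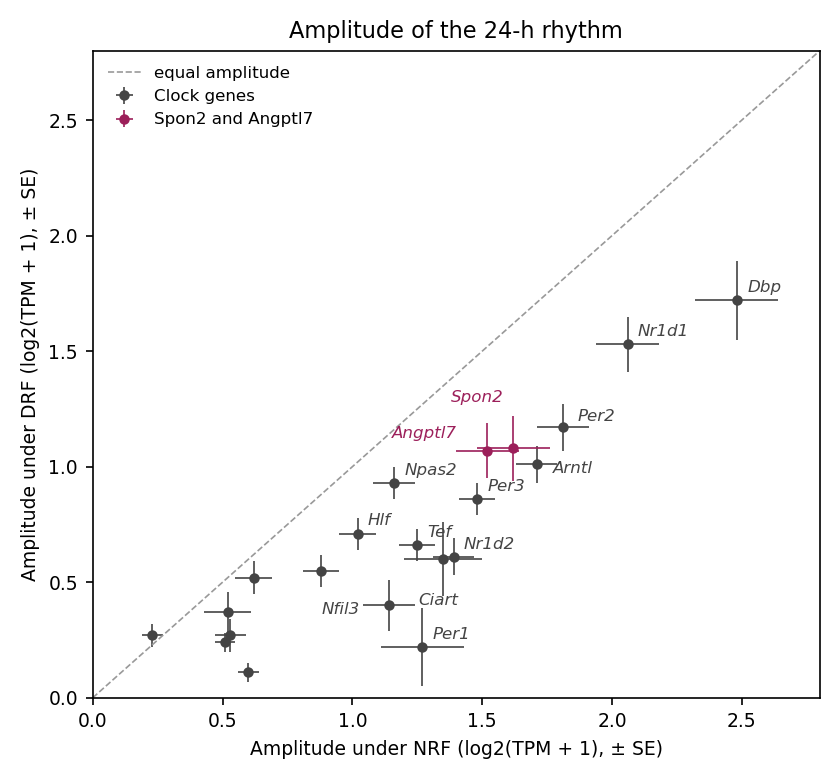
Amplitude of the 24-h rhythm under DRF (y axis) against NRF (x axis), both in log2(TPM + 1) with ± SE, for 19 clock genes and for Spon2 and Angptl7. Both genes lie below the dashed line of equal amplitude, at 1.62 and 1.08 for Spon2 and 1.52 and 1.07 for Angptl7, next to Arntl and Per2.

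The profiles were also laid over each other in another way, by time of day and by time since the start of feeding, where a DRF heart is set against the NRF heart of 12 h later or earlier, taking the feeding windows as 12 h apart. The mean absolute log2 difference between regimens, over 6 times, was 0.57 for Spon2 at the same ZT and 1.74 at the same feeding time. For Angptl7 it was 0.41 and 1.67. Pearson's r of the 6 group means of Angptl7 was 0.96 at the same ZT and -0.96 at the same feeding time, and for Spon2 it was 0.92 and -0.89. These follow from the choice of the genes. All 19 clock genes were closer at the same ZT (medians 0.46 and 1.09), and 0 of the 6 feeding-driven genes were (medians 0.52 and 0.21), which the study had picked on these same samples. Among them are Cpt1a, which brings fatty acids into mitochondria, and Ucp3, a mitochondrial carrier. Of all 13893 genes, 7944 were closer at the same ZT (medians 0.13 and 0.14).

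**Figure D4:**
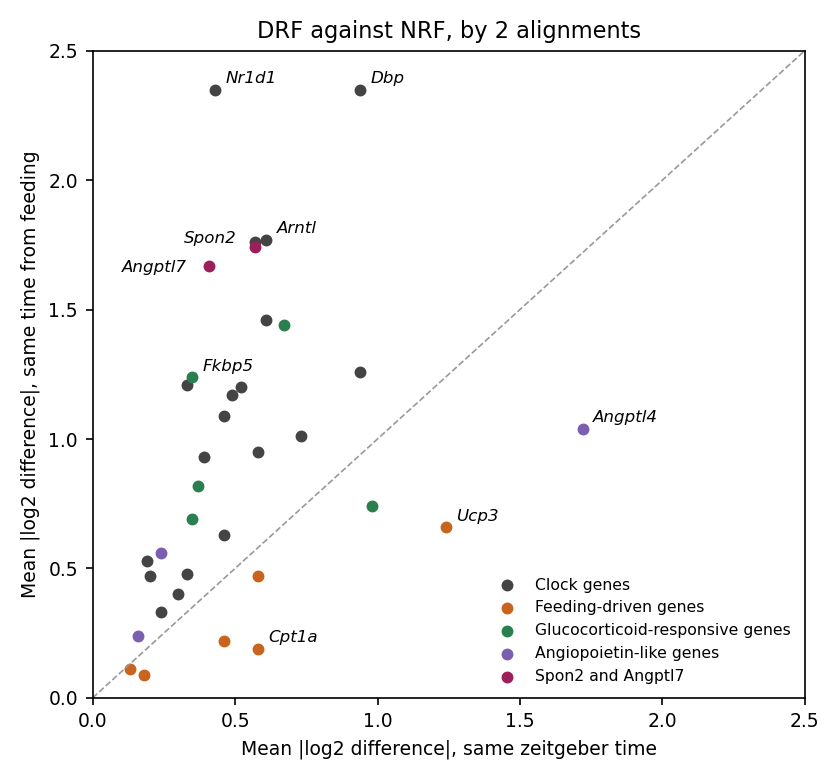
Mean absolute log2 difference between DRF and NRF over 6 times when hearts are matched by time since feeding started (y axis) or by zeitgeber time (x axis), 1 point per gene. Points above the dashed line are closer by zeitgeber time, as are Spon2 (0.57 and 1.74), Angptl7 (0.41 and 1.67) and all 19 clock genes, while Angptl4 (1.72 and 1.04) and the 6 feeding-driven genes lie below it.

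The mean level over the day was not used to choose the genes and was tested. Spon2 averaged 13.8 ± 11.2 TPM in the 28 NRF libraries and 8.87 ± 6.73 TPM in the 28 DRF libraries (SD over all times). These are averages of linear TPM. The tested difference is of log2 levels in a model with 1 mean per ZT, so it need not match their ratio. The log2 difference of -0.31 (SE 0.15; 2 SE on either side, -0.61 to -0.02) did not pass the adjusted threshold (limma with Benjamini-Hochberg, adjusted p = 0.107; unadjusted p = 0.0383). It passed without replicate 2 (-0.52, adjusted p = 0.0345), without ZT4 (-0.40, adjusted p = 0.0397) and without ZT12 (-0.50, adjusted p = 0.0402). It shrank to -0.12 without ZT8 (adjusted p = 0.619), to -0.19 without replicate 1 (adjusted p = 0.348) and to -0.21 without replicate 4 (adjusted p = 0.429). Angptl7 averaged 23.8 ± 17.2 TPM under NRF and 24.2 ± 14.8 TPM under DRF, a log2 difference of 0.15 (SE 0.11; -0.07 to 0.38; adjusted p = 0.322), which was 0.02 without ZT16 (adjusted p = 0.943). Over all genes 26.0% were called for the mean level, and 24.3% were called lower under DRF, with a median of -0.05 (232 genes higher and 3375 lower, against 808 higher and 1020 lower after median-of-ratios rescaling, which moved the median to 0.00). The mean of Spon2 thus lay on the side to which the background leaned.

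ZT24 and ZT0 are the same clock time on successive days, and the cosine treats them as one. For Spon2 the log2 change from ZT0 to ZT24 was -0.22 (SE 0.37; adjusted p = 0.88) under NRF and 0.13 (SE 0.37; adjusted p = 0.925) under DRF. For Angptl7 it was -0.28 (SE 0.29; adjusted p = 0.781) under NRF and -0.66 (SE 0.29) under DRF, from 18.3 ± 4.53 to 11.2 ± 2.64 TPM (limma, unadjusted p = 0.0305, adjusted p = 0.341). Without 1 replicate number the change of Angptl7 ran from -0.56 to -0.11 under NRF and from -0.89 to -0.51 under DRF. Over all genes 0.0576% were called under NRF and 0.425% under DRF.

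A second harmonic asked whether either profile held 2 peaks a day. The 12-h amplitude of Spon2 was 0.14 (SE 0.16; adjusted p = 0.957) under NRF and 0.29 (SE 0.16; adjusted p = 0.439) under DRF, where it ran from 0.07 without replicate 3 (adjusted p = 0.958) to 0.53 without replicate 1 (adjusted p = 0.0957). That of Angptl7 was 0.18 (SE 0.13; adjusted p = 0.936) and 0.10 (SE 0.13; adjusted p = 0.855). Without 1 replicate number, that of Angptl7 ran from 0.12 to 0.28 under NRF and from 0.11 to 0.21 under DRF. That of Spon2 under NRF ran from 0.08 to 0.27. Over all genes, limma called 0% under NRF (806 genes at an unadjusted p under 0.05) and 0.209% under DRF.

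The relatives of Angptl7 had varied daily profiles. Of 9 other angiopoietin-like and angiopoietin genes 8 were tested, 4 were rhythmic under NRF, 4 under DRF and 3 under both, beside 37.2% of all genes under NRF and 32.2% under DRF. The rhythm differed between regimens in 1 (27.5% of all genes), Angptl4, an inhibitor of lipoprotein lipase, whose peak moved from ZT4.4 to ZT20.2, a shift of -8.22 h (SE 0.825; adjusted p = 1.1e-07, limma). Angptl2, a vascular and inflammatory ligand, peaked at ZT11.2 and ZT9.15, a shift of -2.06 h (SE 0.816). Its difference in rhythm did not pass (limma, adjusted p = 0.121), except without replicate 4 (adjusted p = 0.0363). Angptl1 peaked at ZT17 under NRF, within an hour of Angptl7, and at ZT13.9 under DRF, with a small amplitude of 0.21 and 0.16. The mean level was lower under DRF in 2 of the 8, beside 24.3% of all genes tested, and after median-of-ratios rescaling in 1, Angptl2, beside 7.34%. These were Angptl2 (log2 -0.25, SE 0.06, adjusted p = 0.00118) and Angptl1 (log2 -0.13, SE 0.05, adjusted p = 0.0276). The call of Angptl1 was lost in 9 of 16 alternatives and that of Angptl2 without replicate 3 (adjusted p = 0.0547).

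The receptors Tek (TIE2) and Tie1, which bind or assist angiopoietins on endothelium, were both lower under DRF, by log2 values of -0.13 (SE 0.04, adjusted p = 0.00999; lost in 4 of 16 alternatives) and -0.18 (SE 0.04, adjusted p = 0.00136). After median-of-ratios rescaling 1 of the 2 was called lower, Tie1 (log2 -0.12, adjusted p = 0.00422). Of all genes, 24.3% were called lower as the values stand and 7.34% after that rescaling. Both passed the threshold for a rhythm under DRF alone (32.2% of all genes under DRF and 37.2% under NRF), with amplitudes of 0.20 and 0.16. The difference in rhythm reached an adjusted p of 0.043 for Tek, lost in 12 of 16 alternatives, and 0.113 for Tie1. Tie1 is also one of the 5 endothelial markers. The other 4 markers summed to 314 to 532 TPM under DRF (median 395) and 368 to 636 TPM under NRF (median 444), with 3 of 4 called lower (1 after the rescaling, beside the same shares of all genes), and their part in the receptor levels was not tested.

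Around Spon2, 6 of 10 other spondin, R-spondin and thrombospondin genes were tested. Spon1, its nearest namesake, averaged 9.79 TPM and was not called rhythmic under NRF (adjusted p = 0.292) or DRF (adjusted p = 0.389). Thbs2, a thrombospondin of the matrix, was the single one of the 6 rhythmic under NRF (37.2% of all genes), with a peak at ZT9.84 and a difference in rhythm (adjusted p = 0.00594) that was lost without replicate 3 and without ZT12. Of 7 integrins that bind matrix or mindin, 0 were called rhythmic under either regimen by limma, with 1 at an unadjusted p under 0.05 under NRF and 0 under DRF. Of all 13893 genes, 37.2% and 32.2% were called, and 6518 and 6113 had an unadjusted p under 0.05. Itgb1 (log2 -0.14, SE 0.03, adjusted p = 0.000301) and Itga5 (log2 -0.15, SE 0.04, adjusted p = 0.00598) were lower in mean level under DRF, the latter not without ZT8. Of all genes 24.3% were called lower. After median-of-ratios rescaling both calls remained (adjusted p = 0.0014 and 0.0223), beside 7.34% of all genes. Of 9 feedback targets of WNT signalling, a pathway that R-spondins raise, 5 were tested and limma called 0 for rhythm, rhythm difference or mean level, with 1 gene each at an unadjusted p under 0.05 for rhythm under NRF, rhythm under DRF and rhythm difference, and 0 for the mean level. The shares of all genes called in these tests were 37.2%, 32.2%, 27.5% and 26.0%.

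Glucocorticoid-responsive genes peaked at many times of day, some of them near Angptl7. All 10 were tested, 7 were rhythmic under NRF, 6 under DRF, 5 under both, and 8 differed in rhythm between regimens, beside 37.2%, 32.2% and 27.5% of all genes for the rhythm under NRF, under DRF and its difference. Fkbp5, a chaperone of the glucocorticoid receptor, peaked at ZT15.7 under NRF and ZT17.5 under DRF, a shift of 1.85 h (SE 0.603; adjusted p = 0.0297). Tsc22d3 (GILZ) peaked at ZT14.6 and ZT15.4 (0.792 h, SE 1.06; adjusted p = 0.0189). Each of these calls was lost in 6 of 16 alternatives. Zbtb16, a zinc finger factor, went from ZT13.9 to ZT16.1 (2.21 h, SE 0.839; adjusted p = 0.0498), a call lost in 14 of 16. The cell cycle inhibitor Cdkn1a shifted by -2.76 h (SE 0.718, adjusted p = 0.000505), and Mt2, a metallothionein, by 8.13 h (SE 0.752, adjusted p = 3.56e-10). Klf9 differed in rhythm as well (limma F test, adjusted p = 7.56e-06), a call kept in all 16 alternatives. It was not called rhythmic under DRF (adjusted p = 0.222). Per1, which differed too, is also in the clock list. Corticosterone was not measured in these libraries.

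Likeness was measured as Pearson's r between 14 group means on the log2 scale, which share libraries and the choice of gene, so it is a description. The 10 genes most like Spon2 were Adamts4 (0.97), Gngt2 (0.946), 0610009B22Rik (0.938), Bet1 (0.931), Foxs1 (0.93), Tspan18 (0.929), Leo1 (0.927), Cerk (0.924), Lzic (0.921) and Bri3bp (0.921). Adamts4, a protease that cleaves matrix proteoglycans, peaked at ZT1.95 under NRF and ZT0.663 under DRF at a mean of 1.49 TPM. It had the largest amplitudes of the 10, 0.97 and 0.70, ahead of Foxs1, a forkhead factor, at 0.75 and 0.59, and both lay below those of Spon2. Among clock genes, r was 0.91 with Arntl and 0.909 with Npas2, and -0.945 with Tef and -0.936 with Per3.

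The 10 genes most like Angptl7 were Cntfr (0.975), Fmo2 (0.958), Nmb (0.952), Mturn (0.948), Aqp1 (0.938), Gsta3 (0.938), Aldh1a1 (0.933), Fmo1 (0.928), Il2ra (0.922) and Gm4956 (0.92). Cntfr, the ciliary neurotrophic factor receptor, peaked at ZT15.9 and ZT16.3. Fmo2 and Fmo1 are flavin monooxygenases that oxidise drugs and other foreign compounds, Gsta3 is a glutathione transferase and Aldh1a1 makes retinoic acid. Fmo2 had amplitudes of 1.16 and 0.89 at a mean of 34.5 TPM, with peaks at ZT15.5 and ZT16. Aqp1, a water channel of endothelium, averaged 599 TPM with amplitudes of 0.49 and 0.27. Further along, r was 0.901 with Fkbp5, 0.887 with Per2 and 0.866 with Tsc22d3, and it was -0.775 between Angptl7 and Spon2. With the other glucocorticoid-responsive genes, r was 0.814 (Zbtb16), 0.571 (Per1), 0.422 (Klf9), 0.362 (Mt2), 0.307 (Ddit4), 0.139 (Sgk1), -0.022 (Errfi1) and -0.279 (Cdkn1a). Of the 10 genes most like Angptl7, 8 had a promoter in the table. Among these, 3 held a glucocorticoid half-site, 2 an E-prime box, 1 a RORE core, 1 a CRE, and 0 an E-box or a D-box. Of the 6 with a promoter among those like Spon2, 3 held a RORE core and 0 any other motif. These counts are per gene, and some genes have several promoters in the table, so they are not to be set against the shares per promoter.

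Within groups, libraries of the same regimen and ZT still differed, which is a measure that did not choose the genes. Each library was expressed as its deviation from its group mean, and 21 relations were computed across the 56 libraries, with permutation within groups and Benjamini-Hochberg adjustment. Deviations of Angptl7 rose with those of tendon and valve markers, matrix genes of dense connective tissue (r = 0.79, rho = 0.73; permutation p = 1e-05, the smallest the permutations can give; adjusted p = 0.00021). Without the 2 libraries farthest from the median of the markers r was 0.76. By gene, r was 0.83 with Chad, 0.81 with Comp, 0.67 with Fmod, 0.45 with Scx and 0.40 with Cilp2, 5 of the 6 listed markers. The sixth, Tnmd, was under the level filter. The summed markers ran from 23.7 to 108 TPM under NRF (median 59.4) and from 21 to 105 TPM under DRF (median 64.9). Of the 5 tested, 1 was called rhythmic under both regimens and 1 for a difference in rhythm, and 0 for the mean level by limma (0 at an unadjusted p under 0.05), beside 37.2% and 32.2% of all genes for rhythm under NRF and DRF, 27.5% for the difference and 26.0% for the mean level.

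Deviations of Spon2 rose with those of epicardial markers, genes of the mesothelial layer on the heart's surface (r = 0.57, rho = 0.55; permutation, adjusted p = 0.0043 for r and 0.00273 for rho; r = 0.51 without the 2 farthest libraries). All 5 markers were positive, from 0.46 for Wt1 to 0.59 for Krt19. Their sum ran from 6.52 to 132 TPM under NRF (median 51) and from 5.21 to 260 TPM under DRF (median 50.6). None of the 5 was called by limma for rhythm under either regimen, rhythm difference or mean level, and 0 had an unadjusted p under 0.05, beside 37.2%, 32.2%, 27.5% and 26.0% of all genes called in the same 4 tests. Spon2 fell as cardiomyocyte markers rose (r = -0.46, rho = -0.45; permutation, adjusted p = 0.0167 for r; r = -0.39 without the 2 farthest), a call lost after median-of-ratios rescaling and without replicate 1 or 3. Spon2 and Angptl7 themselves did not vary together at this error (r = -0.15, rho = -0.11; permutation, adjusted p = 0.535; r = -0.07 without the 2 farthest).

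Angptl7 also rose with fibroblast markers (r = 0.48, rho = 0.45; permutation, adjusted p = 0.0167; r = 0.39 without the 2 farthest), adipocyte markers (r = 0.41, rho = 0.42; adjusted permutation p = 0.0244; r = 0.46) and macrophage markers (r = 0.42, rho = 0.38; adjusted permutation p = 0.0302 for r and 0.0636 for rho; r = 0.36). Fibroblast markers summed to a median of 693 TPM under DRF and 754 TPM under NRF, and 5 of 7 were called lower under DRF (3 after median-of-ratios rescaling), beside 24.3% of all genes (7.34% after it). The 3 relations lost their calls when some replicates were left out, the fibroblast call without replicate 1, 2 or 3, the adipocyte call without replicate 1, 2 or 4 and the macrophage call without any 1 of the 4. Atrial markers varied most, from 129 to 4396 TPM under NRF (median 609) and from 95 to 5486 TPM under DRF (median 1803). They were not related to either gene past the threshold (r = 0.01, rho = -0.03, adjusted permutation p = 0.972 and r = -0.05 without the 2 farthest for Spon2; r = 0.30, rho = 0.28, adjusted permutation p = 0.241 and r = 0.24 for Angptl7). For the mean level, limma called 1 of the 5 atrial markers higher under DRF, Bmp10 (log2 1.58, SE 0.60, adjusted p = 0.0458). All 5 had an unadjusted p under 0.05, and their median log2 difference was 1.16. Of all 13893 genes, 1.67% were called higher and 5381 had an unadjusted p under 0.05.

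**Figure D5:**
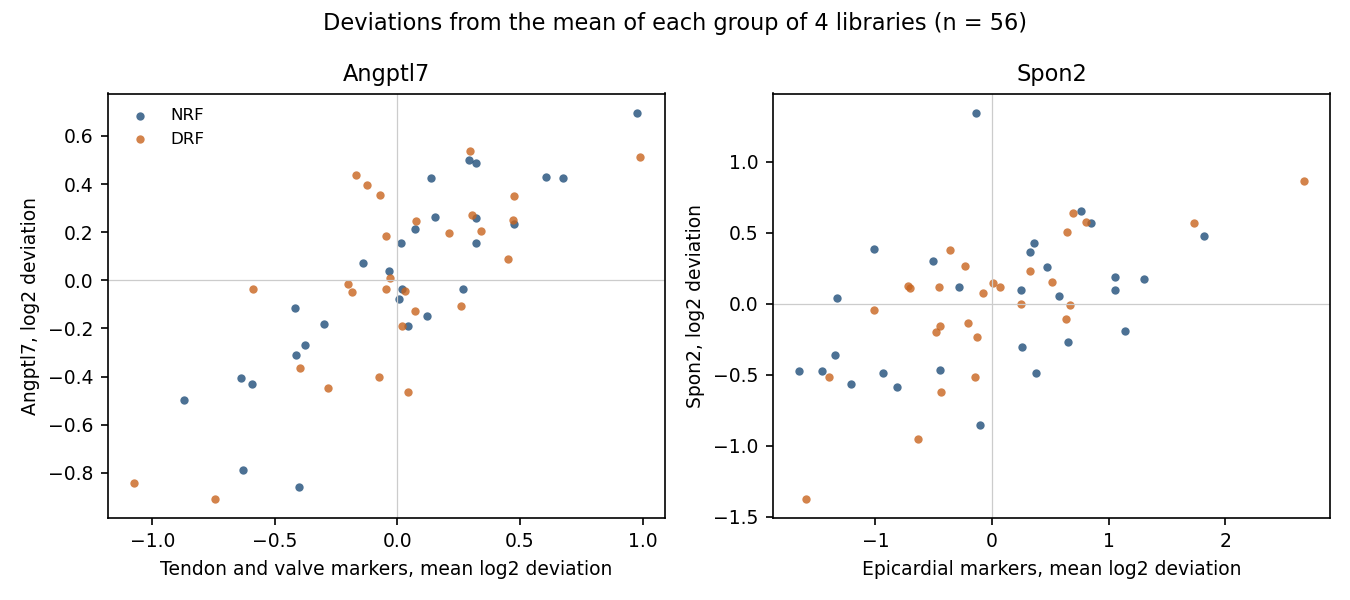
Deviation of Angptl7 (left) and Spon2 (right) from the mean of its group of 4 libraries on the log2 scale (y axis) against the mean log2 deviation of tendon and valve markers or of epicardial markers (x axis), 1 point per library, 56 in all. Over both regimens together, Angptl7 rises with the tendon and valve markers (r = 0.79) and Spon2 with the epicardial markers (r = 0.57). No r was computed within a regimen.

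With the epicardial level as a term in the fit, the phase shift of Spon2 was -0.0525 h and its log2 amplitude ratio -0.48, against 0.15 h and -0.59 without it. With the tendon and valve level as a term, Angptl7 had a shift of -0.152 h and a log2 amplitude ratio of -0.40, against -0.449 h and -0.51.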

How the data were processed

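PolyA RNA was sequenced from 56 heart samples of 2 feeding regimens, 7 zeitgeber times and 4 replicates. Per the labels, the authors aligned reads with HISAT2 2.0.5 to mm10 and counted them with featureCounts 1.5.0-p3. The deposited values, named TPM by the authors, were not linear. In each library they followed a constant multiplied by log2(1 + depth-scaled reads) and divided by exon length. The design had assumed linear TPM, so whole reads were recovered from the steps of the low values with exon lengths from GENCODE M21 (99.9996% within 0.1 read of a whole number, for values up to 30000 reads). The annotated length served for 21952 genes, a searched length for 831, of which 796 lie on chromosomes 17 to 19, and 78 were too abundant for the test. Hsp90ab1, Atp5a1 and Fth1 (3 genes) were unresolved and left out. Linear TPM was then recomputed. Genes that averaged 1 TPM or more were tested on log2(TPM + 1), which understates changes of low genes, with limma 3.58.1 (eBayes with trend) in R 4.3.3 and Benjamini-Hochberg adjustment over 13893 genes at 0.05.

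Rhythms were fitted with a cosine and sine of 24 h within each regimen (28 libraries), and rhythm differences with their interaction with regimen. The mean level was tested beside 1 mean per ZT, ZT24 against ZT0 as a contrast of 14 group means, and a component of 12 h beside that of 24 h. Standard errors of peak time came from the delta method. The fits and the recovery were tested on simulated data. Within-group deviations were permuted 100000 times within groups (two-sided). The alternatives were another pseudocount, no filter, median-of-ratios rescaling, the deposited values, a replicate block, and leaving out replicates, times or libraries. Genes were named as follows: both genes in every group, the 10 genes most like each by r, and list genes that passed a test, up to 4 a list, with examples beyond that chosen after their values were seen. Both genes and all lists were chosen with earlier results of these data known. The feeding-driven list is the study's own choice on these samples.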

Additional observations from a re-analysis of the deposited data

Results flagged for a closer look

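In 1 of the 28 groups of 4 libraries of Spon2 and Angptl7, a library lay far from the others. Angptl7 read 5.02 TPM in replicate 4 of ZT4 under DRF, against 12, 13.4 and 13.4 TPM in the other 3. By chance about 1 in 20 groups would show such a gap.

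The 24-h rhythm differed between DRF and NRF in 18 of 19 clock genes, 8 of 10 glucocorticoid-responsive genes, 6 of 6 feeding-driven genes, 1 of 8 angiopoietin-like and angiopoietin ligands, 1 of 2 angiopoietin receptors and 1 of 6 spondin-related genes tested (limma, adjusted p under 0.05), beside 27.5% of all genes tested. The last 3 lists have 1 gene each, and 1 of 8 and 1 of 6 lie below that share. Per1 is counted in both the clock and the glucocorticoid-responsive list.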

How the results depend on the processing

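The mean level difference of Spon2 passed the threshold without ZT4 (log2 -0.40), without ZT12 (-0.50) and with the epicardial marker level as a term (-0.37), fell in size to -0.12 without ZT8, and ranged from -0.52 to -0.19 when 1 replicate number was left out. The 2 marker terms were chosen after seeing the data. With them, the ZT24 change of Spon2 under DRF turned to -0.10 and that of Angptl7 under NRF to 0.24, both far from the threshold. For Angptl7 the mean level difference ran from 0.02 (without ZT16) to 0.24 (without ZT12) and from 0.09 to 0.21 without 1 replicate number. When a time was left out, its log2 amplitude ratio ran from -0.79 (without ZT16) to -0.39 (without ZT20). Without 1 replicate number this ratio ran from -0.59 to -0.35. The log2 amplitude ratio of Spon2 was -0.30 without ZT12, and its 12-h amplitude under DRF ran from 0.07 to 0.53 without 1 replicate number. The phase shift ran from -0.417 h (without ZT4) to 1.37 h (without ZT8) for Spon2 and from -0.772 h to -0.0977 h for Angptl7 when a time was left out. Without single libraries the mean difference of Spon2 ran from -0.36 to -0.23.

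Counts of genes moved more. For the mean level they were 1828 after median-of-ratios rescaling (808 higher and 1020 lower), 1900 on the deposited values, 1413 without ZT8 and 1791 without ZT16, and 1178 to 3711 without 1 replicate number. For ZT24 against ZT0 they were 217 and 112 under DRF with the same first 2 settings, 2 to 59 without a replicate number, and 0 to 14 under NRF. The 12-h component under NRF gave 9 and 5, and under DRF 104, 93, 154 without ZT24, and 0 to 267 without a replicate number. Rhythm counts were 3313 under NRF and 2387 for the difference without ZT12, 2577 under DRF without ZT16, and 2812 to 5257, 2296 to 3577 and 1843 to 3280 without a replicate number for NRF, DRF and the difference. The cause of these changes was not tested.

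Over all genes, same-numbered libraries did not deviate together (r at the same ZT -0.179 to 0.115, over 0.1 in 1 of 28 pairs). Such an r over all genes cannot show a factor shared by part of the genes, and none was tested. With the replicate block 76 genes had a 12-h component under DRF, against 29 without the block. The block moved no other count by over 1.5 times.

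Relations within groups that lost their call after median-of-ratios rescaling were Spon2 with cardiomyocyte (-0.35) and Angptl7 with macrophage markers (0.34). Without a replicate number r ran from -0.52 to -0.43 for Spon2 and cardiomyocyte, 0.43 to 0.51 for Angptl7 and fibroblast, 0.40 to 0.44 for macrophage and 0.32 to 0.54 for adipocyte markers. Weak relations turned sign. Angptl7 with cardiomyocyte markers was -0.17 after that rescaling and -0.06 to 0.30 without a replicate number. The like ranges were -0.27 to 0.16 for Spon2 and tendon, -0.09 to 0.37 for macrophage, -0.04 to 0.19 for adipocyte, -0.10 to 0.06 for atrial and -0.02 to 0.22 for endothelial markers, and -0.01 to 0.25 for Angptl7 and epicardial markers. Of 37 named genes tested for a rhythm difference, 12 changed call under at least 1 setting. Genes with a mean under 1 TPM were tested only in the alternative without the filter.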
